A study of Mus musculus with 24 samples.

Results

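Nnt and Tmem267 are neighbouring genes on mouse chromosome 13, and they were taken from the deposited table by symbol, as 2 of its 19015 genes. They were selected on their measured KO-against-WT differences, with Nnt higher and Tmem267 lower in the knockout libraries of several tissues, so that difference is described here with no test. RNA was sequenced from female mice aged 12 weeks that were either wildtype (WT) or knockout (KO) for Prxl2a, a gene of the peroxiredoxin-like family. Each genotype gave 3 libraries of inguinal adipose tissue (IAT, a white fat depot), brown adipose tissue (BAT), brain and liver, which makes 8 groups and 24 libraries. All groups were perfused with PBS before dissection and none carried another stated allele or agent. The design text gives 3 mice per group, so the tissues of a group may come from the same mice. The labels name neither the strain nor the substrain, and do not describe the knockout allele.

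NNT, the nicotinamide nucleotide transhydrogenase, sits in the inner mitochondrial membrane and uses the proton gradient to make NADPH from NADH. That NADPH keeps mitochondrial glutathione and thioredoxin reduced, and so feeds the removal of hydrogen peroxide. Mice of the C57BL/6J substrain carry a deletion of consecutive exons inside Nnt, while C57BL/6N mice keep these exons. Tmem267 encodes a little-studied predicted transmembrane protein.

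In the RefSeq table for GRCm38.p6, Nnt (gene 18115) spans bases 119335527 to 119409257 of chromosome 13, which is 73731 bases, on the minus strand. Tmem267 (gene 633640) spans bases 119488086 to 119610459, or 122374 bases, on the plus strand. The genes are 78829 bases apart, and 2 genes of the table, Paip1 and 4833420G17Rik, start between them. The mouse reference is of the C57BL/6J substrain, and the longest coding model of Nnt in its GENCODE annotation has 17 exons and 835 codons. Reads from exons that this annotation lacks would not be counted under Nnt.

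The coding part of Tmem267 lies in 2 copies of the same orientation in this reference, within the span of the gene. The near copy has its coding exons at 119492634 to 119493015 and from 119495135, and the far copy at 119606649 to 119607030 and from 119609192. Over the 753 bases that both copies share there were 0 mismatches. The first coding exons of the copies start 114015 bases apart, and each copy encodes 238 codons. The first 90 coding bases of each are shown because they make the copies' identity visible. They are read 5′ to 3′ on the plus strand of GRCm38.p6 at chr13:119492635-119492724 for the near copy and chr13:119606650-119606739 for the far copy, with the start codon in capitals.
Tmem267 near copy: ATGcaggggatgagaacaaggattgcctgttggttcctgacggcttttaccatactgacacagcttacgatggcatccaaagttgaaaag
Tmem267 far copy: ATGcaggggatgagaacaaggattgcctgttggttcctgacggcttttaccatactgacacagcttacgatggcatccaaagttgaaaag
The letters are the same at every position, so a read from this stretch cannot be placed on one copy. Both copies belong to the same gene in this annotation. Whether the value of Tmem267 sums both is not known, since the annotation used for counting is not given. The first exon of Tmem267 also overlaps 3110070M22Rik, a gene of the opposite strand (119487257 to 119488384) that is not a row of the table. RefSeq lists it as a long non-coding RNA, while GENCODE lists its transcript as coding, with 118 codons. Whether counting used strand is not given in the sources used here.

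The deposited expected counts summed to between 12327459 and 18257788 per library. The knockout label was checked on Prxl2a itself, whose KO mean was 1.98% of the WT mean in liver, 4.19% in IAT, 4.56% in BAT and 5.54% in brain. Each KO library lay below each WT library of its tissue. In IAT edgeR called no gene, not even Prxl2a (log2 fold change -4.58, adjusted p = 0.0912), so a miss there says little about a gene. The tissue labels matched their defining markers, with Adipoq at 2172 TPM or more in each IAT library, Ucp1 at 2710 TPM or more in each BAT library, Snap25 at 2851 TPM or more in each brain library and Alb at 76959 TPM or more in each liver library. Some libraries held RNA of other cells. IAT KO libraries 1 and 3 summed to 2072 and 1025 TPM over 10 lymphocyte markers, against 8.47 in KO library 2 and 17.5 to 25.7 in WT. Over 8 skeletal muscle markers IAT WT libraries 1 and 2 summed to 1474 and 5419.9 TPM, against 8.24 in WT library 3 and 17.3 to 49.4 in KO. BAT WT library 1 stood at 2149 TPM for muscle, against 3.26 and 28.8 in the other WT libraries and 4.31 to 121 in KO. In bulk tissue, a change in the share of cells that express a gene and a change in its RNA per cell cannot be told apart.

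Nnt was higher in KO than in WT in IAT, brain and liver, most in liver, while in BAT its low values overlapped between genotypes. Values are CPM, reads scaled to library size with TMM factors within a tissue, and each fold change is the KO-minus-WT estimate of edgeR on the log2 scale with its standard error. In liver, Nnt stood at 49.1, 42.7 and 48.7 CPM in the WT libraries and at 152, 149.9 and 141 CPM in the KO libraries. The lowest KO library was far above the highest WT library. The means were 46.8 ± 3.57 CPM in WT and 148 ± 5.79 CPM in KO (SD, n = 3 each), a fold of 3.15, with a log2 fold change of 1.66 ± 0.08 (SE). Among 12331 genes tested in liver, this estimate ranked 36 from the top. A KO-above-WT order without overlap was seen for 10.6% of the genes tested in liver.

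In IAT, Nnt stood at 18.5, 21.8 and 25.2 CPM in WT and at 46.4, 53.9 and 52.1 CPM in KO. The groups were again apart, with means of 21.8 ± 3.35 and 50.8 ± 3.93 CPM (SD, n = 3 each) and a log2 fold change of 1.22 ± 0.16 (SE). The KO libraries rich in lymphocyte transcripts, 1 and 3, lay on both sides of KO library 2 in TPM, at 22.1 and 24.5 against 22.6 TPM, and below it in CPM. Leaving out the WT libraries with muscle transcripts, WT 1 and 2, gave 0.97, with only WT library 3 left in that group. KO above WT without overlap was the order of 8.81% of the genes tested in IAT, and Nnt ranked 791 from the top among 14097 estimates there.

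In brain, Nnt stood at 22.6, 22.0 and 24.5 CPM in WT and at 39.8, 42.4 and 40.1 CPM in KO. Within each genotype the 3 libraries lay close together, and the groups did not overlap. The means were 23.0 ± 1.32 and 40.8 ± 1.46 CPM (SD, n = 3 each), and the log2 fold change was 0.82 ± 0.09 (SE). By comparison, 6.53% of the genes tested in brain had KO above WT without overlap.

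In BAT, Nnt was low in both genotypes, at 7.67, 4.46 and 3.68 CPM in WT and 8.47, 7.71 and 6.32 CPM in KO. WT library 1, the library with muscle transcripts, lay within the range of the KO libraries, so the groups overlapped, while 14.3% of the genes tested in BAT had KO above WT without overlap. The means were 5.27 ± 2.11 and 7.50 ± 1.09 CPM (SD, n = 3 each), and the log2 fold change was 0.51 ± 0.29 (SE). These values rest on 47 to 103 expected counts per library, for which counting alone gives an error of 9.85% to 14.6%. The log2 fold change was 0.88 without WT library 1 and 0.31 without WT library 3. The part of muscle RNA in the value of WT library 1 was not tested.

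**Figure D1:**
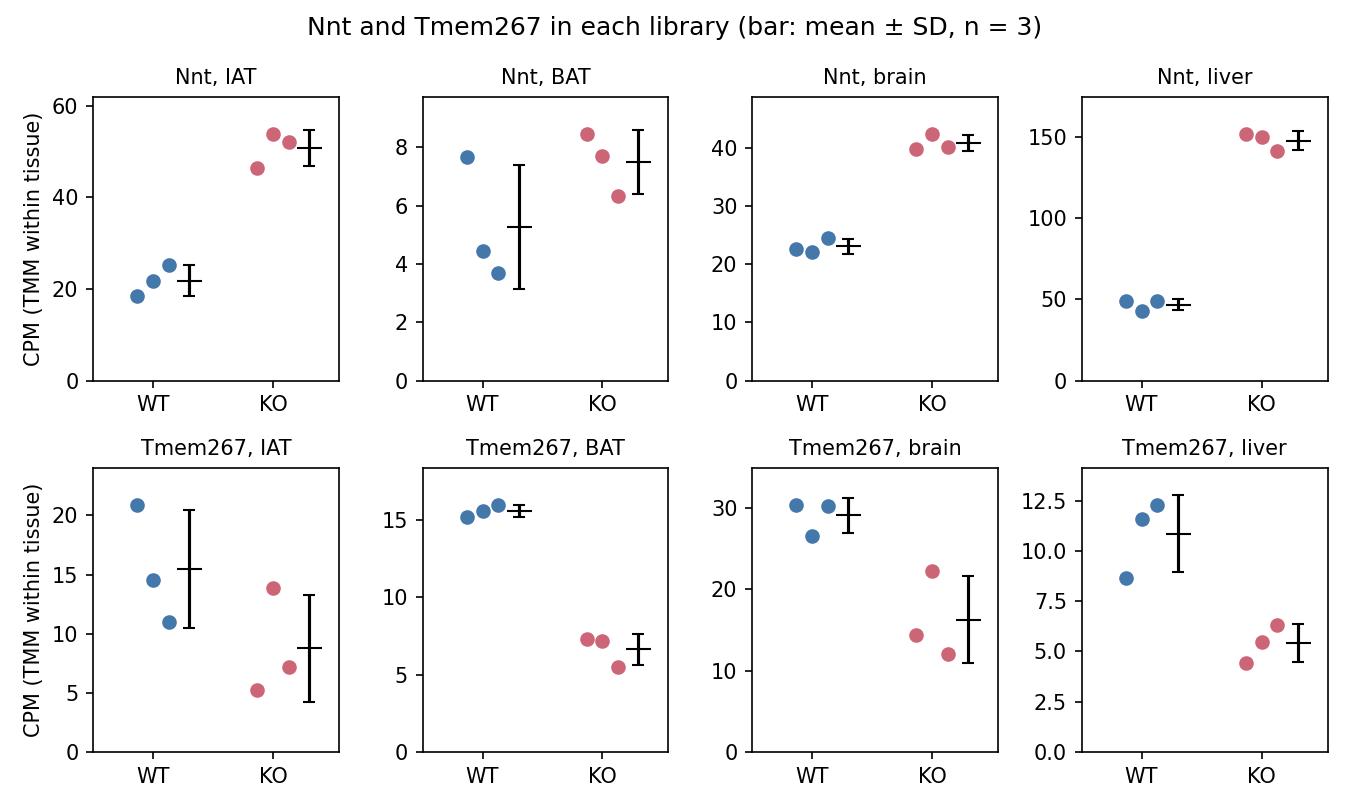
CPM of Nnt (top row) and Tmem267 (bottom row) in each library of IAT, BAT, brain and liver, scaled by TMM within a tissue, with WT in blue and KO in red; the black bar beside each group is the mean ± SD of its 3 libraries, and each panel has its own axis from 0. Nnt in KO lies above WT without overlap in IAT, brain and liver, and Tmem267 in KO lies below WT without overlap in BAT, brain and liver.

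Tmem267 had the opposite direction, with KO means at 42.7% to 56.8% of the WT means in the 4 tissues. In BAT, it stood at 15.2, 15.6 and 16.0 CPM in WT and at 7.32, 7.15 and 5.50 CPM in KO. The WT libraries were nearly equal and each KO library was below them, with means of 15.6 ± 0.436 and 6.65 ± 1.01 CPM (SD, n = 3 each) and a log2 fold change of -1.23 ± 0.15 (SE). KO below WT without overlap was the order of 11.3% of the genes tested in BAT.

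In liver, Tmem267 stood at 8.67, 11.6 and 12.3 CPM in WT and at 4.44, 5.46 and 6.33 CPM in KO, with a log2 fold change of -1.00 ± 0.18 (SE). The groups did not overlap, as for 11.0% of the genes tested in liver in this direction. In brain, the WT libraries held 30.4, 26.6 and 30.3 CPM and the KO libraries 14.4, 22.3 and 12.1 CPM, with a log2 fold change of -0.84 ± 0.21 (SE). KO library 2 was the closest to WT, and 5.99% of the genes tested in brain had KO below WT without overlap. That library also summed to 562 TPM over 6 markers of striatum, a forebrain region, against 108 and 121 in the other KO libraries. WT libraries 1, 2 and 3 summed to 998, 787 and 156 TPM, beside their Tmem267 values of 30.4, 26.6 and 30.3 CPM. Without KO library 2, the log2 fold change of Tmem267 was -1.13. The part of dissection in this spread was not tested.

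In IAT, Tmem267 stood at 20.9, 14.5 and 11.0 CPM in WT and at 5.27, 13.9 and 7.16 CPM in KO. The groups overlapped, since KO library 2 lay between the WT libraries, and 9.65% of the genes tested in IAT had KO below WT without overlap. The lower KO values were those of libraries 1 and 3, which were rich in lymphocyte transcripts. These libraries also summed to less over 6 adipocyte markers than KO library 2, at 30616 and 58898 against 85912 TPM, with 45579.5 to 61524 in WT. Over 5 macrophage markers they summed to more, at 1912 and 1258 against 634 TPM, with 1327 to 3827 in WT. The log2 fold change was -0.82 ± 0.42 (SE) over all 6 libraries and -0.54 without WT library 1. It was -0.14 without KO libraries 1 and 3, with only KO library 2 left in that group. The part of the mix of cells in this difference was not tested.

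The members were also compared within each library. The ratio of Nnt to Tmem267 TPM, which is scaled per length and per library, was 1.81 to 2.89 in liver WT libraries and 11.0 to 16.2 in liver KO libraries. In BAT the ratio was 0.116 to 0.263 in WT and 0.518 to 0.607 in KO. Brain gave 0.381 to 0.423 in WT and 0.958 to 1.71 in KO, and IAT gave 0.452 to 1.19 in WT and 1.95 to 4.32 in KO. The ratio was higher in KO, a direction that the choice of the members fixes, so nothing is read from it.

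Of 11027 genes tested in all 4 tissues, 133 had KO above WT without overlap in at least 3 tissues, as Nnt did, which is 1.21% of them. In the other direction, 77 genes had KO below WT in at least 3 tissues, as Tmem267 did, which is 0.698%. These shares describe the background, and nothing is read from them, because both genes were chosen for this order.

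The length that the deposited counts and FPKM together imply for Nnt was 3303 to 3340 bases in WT libraries and 3247 to 3346 bases in KO libraries. For Tmem267 it was 1627 to 1742 bases in WT and 1571 to 1765 bases in KO. The ranges overlapped between genotypes for both genes. Values per gene carry no exon, allele or genotype of Nnt, and which Nnt allele each mouse had was not tested.

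Among WT tissues, a contrast that was not used to choose the genes, Nnt was highest in liver and lowest in BAT. With TMM over the 12 WT libraries, its mean was 80.5 ± 5.82 CPM in liver, 17.2 ± 0.989 CPM in brain, 17.1 ± 2.74 CPM in IAT and 5.24 ± 2.13 CPM in BAT (SD, n = 3 each). The 4 tissues differed (edgeR quasi-likelihood F-test, adjusted p = 3.43e-08), as did 96.1% of the 15810 genes tested. Of the 6 tissue pairs, 5 were called, from a log2 difference of -3.94 ± 0.23 (SE) for BAT minus liver to 1.70 ± 0.22 for IAT minus BAT. IAT and brain did not differ beyond their spread, with a log2 difference of -0.01 ± 0.20 in CPM (SE, edgeR adjusted p = 0.967). Over all genes and the 6 pairs, 72.3% of the tests were called, so such differences were common.

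On the TPM scale, the order of Nnt levels was liver at 19.5 ± 0.959, brain at 15.9 ± 1.11, IAT at 9.36 ± 1.43 and BAT at 2.13 ± 0.883 TPM (SD, n = 3 each). There liver and brain lay close together, at a log2 difference of -0.28 for brain minus liver on log2(TPM + 1), which did not pass limma's test. IAT and brain, alike in CPM, were apart on this scale, with IAT minus brain at -0.71 on log2(TPM + 1) and -0.77 on log2(TPM + 0.1), both of which passed it. Which of these neighbours in the order differ thus depends on the scale. Alb alone took 76959 to 104739 TPM of each liver library, and its part in the difference between the scales was not tested.

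Tmem267 varied less between WT tissues. Its mean was 21.7 ± 1.58 CPM in brain, 18.7 ± 3.34 CPM in liver, 15.5 ± 0.342 CPM in BAT and 12.1 ± 3.85 CPM in IAT (SD, n = 3 each). The F-test gave an adjusted p of 0.00943 in edgeR, and 0.0568 when all 24 libraries shared the fit. Brain was above IAT by 0.85 ± 0.20 on the log2 scale (IAT minus brain -0.85, edgeR adjusted p = 0.00222), liver was above IAT (IAT minus liver -0.63, adjusted p = 0.0169) and brain was above BAT (BAT minus brain -0.49, adjusted p = 0.0437). The other 3 pairs did not pass. The IAT-to-brain call was kept in all 21 alternatives, IAT to liver in 14 and BAT to brain in 11. Leaving out WT library 2 or 3 of IAT or of liver ended the IAT-to-liver call, as did 1 fit of all 24 libraries. The BAT-to-brain call was lost without any 1 library of BAT, without brain library 1 or 3, without liver library 2 or 3, or without IAT library 2, and in 1 fit of all 24 libraries. In TPM brain kept the first place and BAT the third, while liver and IAT changed places, with brain at 39.3 ± 2.83, BAT at 12.4 ± 0.431 and liver at 9.06 ± 1.88 TPM (SD, n = 3 each), and IAT slightly above BAT. The order of liver against IAT and BAT thus turned with the scaling and is not established.

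Nnt was compared with transcripts for oxidative phosphorylation, the machinery that builds the proton gradient NNT uses. Over 86 genes for subunits of that machinery, WT libraries summed to 209661 ± 14157 TPM in BAT, 56336 ± 7510 in IAT, 48748 ± 1280 in brain and 35971 ± 483 in liver (SD, n = 3 each). BAT had the most of these transcripts and the least Nnt, and liver the reverse. Per 1000 TPM of these genes, Nnt stood at 0.0104 ± 0.00493 TPM in BAT, 0.170 ± 0.0463 in IAT, 0.327 ± 0.0313 in brain and 0.543 ± 0.0318 in liver WT libraries. In KO libraries the same measure was 0.0131 ± 0.00253, 0.486 ± 0.0938, 0.566 ± 0.0157 and 1.59 ± 0.138, in the same order of tissues.

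**Figure D2:**
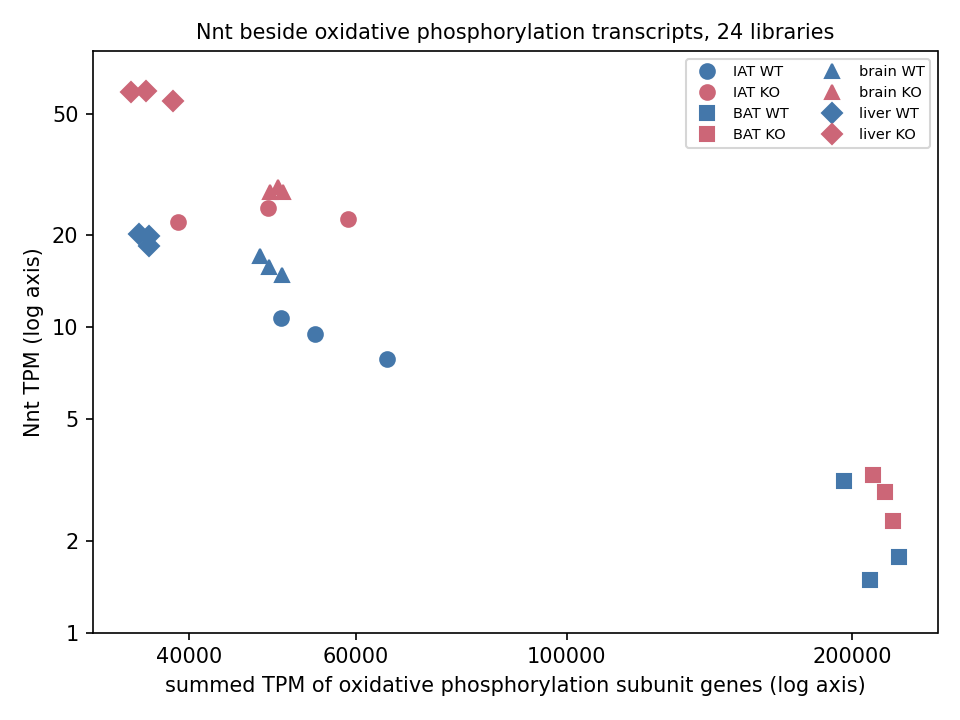
Nnt TPM (log axis) against the summed TPM of 86 oxidative phosphorylation subunit genes (log axis) in the 24 libraries, with the tissue as marker shape, WT in blue and KO in red. BAT libraries lie at the lower right, with the highest sum and the lowest Nnt, and liver KO libraries at the upper left.

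Of the genes around the pair, 1 was called in 1 tissue. Of 18 table genes that start within 2 Mb of the Nnt start (the lower coordinate of each gene), 6 were tested in liver, 10 each in brain and BAT and 11 in IAT, and the only one called by edgeR was Hmgcs1 in liver. The share of all genes called was 1.11% in liver, 0.0487% in brain, 0.540% in BAT and 0% in IAT. At an unadjusted p under 0.05 (edgeR) there were 1 of 11 tested neighbours in IAT and 5 of 10 in BAT. In brain there were 2 of 10 and in liver 1 of 6. Over all genes these were 2226 of 14097, 2330 of 12588, 946 of 14385 and 1988 of 12331, in the order IAT, BAT, brain and liver. In that order 2, 6, 3 and 1 tested neighbours had groups without overlap. Over all genes KO lay above WT without overlap in 8.81%, 14.3%, 6.53% and 10.6%, and below it in 9.65%, 11.3%, 5.99% and 11.0%. Limma-voom called none in IAT, BAT or brain, and DESeq2 called Fgf10 in BAT (log2 fold change -1.23, adjusted p = 0.00355, against 0.0836 in edgeR). The median log2 fold change of the tested neighbours was -0.07 in liver, -0.14 in brain, -0.14 in BAT and -0.04 in IAT, beside all-gene medians of 0.00, 0.00, -0.01 and 0.02.

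Paip1, which encodes a partner of the poly(A)-binding protein in translation, starts 93 kb from the Nnt start, between the members. Its WT libraries in liver held 62.6, 54.0 and 61.9 CPM and its KO libraries 54.1, 64.1 and 58.5 CPM, overlapping throughout. Its log2 fold changes of -0.04, 0.04, 0.07 and -0.01 in IAT, BAT, brain and liver, each with an SE of 0.09 to 0.12, were all near 0. The other gene between the members, 4833420G17Rik, had log2 fold changes of 0.37, -0.31, 0.00 and -0.19 with overlapping groups in each tissue.

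Hmgcs1, which encodes the cytosolic HMG-CoA synthase of cholesterol synthesis, fell in liver. It starts 355 kb from the Nnt start, at bases 119690351 to 119708260. Its liver WT libraries held 286, 423 and 269.8 CPM and its KO libraries 129, 107 and 153 CPM, with no overlap. The log2 fold change was -1.33 ± 0.19 (SE, edgeR adjusted p = 0.0133), and without liver KO library 1 it was -1.32 with an adjusted p of 0.0584, above the threshold. Over 15 alternatives the adjusted p ran from 5.32e-11 to 0.0584. The log2 fold changes in IAT, BAT and brain were -0.06, 0.28 and -0.17, none of them called. The difference between tissues passed the interaction test (edgeR, adjusted p = 0.0357), as it did for 0.421% of the 16169 genes tested.

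On the far side of Tmem267 lies Ccl28, which encodes a chemokine of mucosal surfaces. It was scarce, with WT and KO means of 1.10 and 0.327 CPM in BAT and 4.73 and 1.88 CPM in brain. KO was below WT without overlap in IAT, BAT and brain. Its log2 fold changes were -1.71 ± 0.43 in BAT and -1.33 ± 0.33 in brain (SE), but edgeR's adjusted p was 0.129 and 0.673, and it did not pass the filter on low counts in IAT or liver. Nim1k, a protein kinase gene, had log2 fold changes of -0.88, -0.47, -0.21 and 0.14 in IAT, BAT, brain and liver, of which none passed in the tissue's own fit. When all 24 libraries shared the fit, its value in IAT was -0.89 with an adjusted p of 0.0195.

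Of the other tested neighbours within 1 Mb, Mrps30, which encodes a protein of the mitochondrial ribosome, lay between -0.13 and 0.24, and Zfp131, a zinc finger gene, between 0.03 and 0.29. Gm46390 and Gm21188 had few counts in most tissues, with estimates of -1.07 to 0.68 and SEs of 0.34 to 0.71, and BC147527 was tested in IAT alone, at 0.36 ± 0.85 (SE). Tcstv1, Gm21761, B020031M17Rik, Gm36079, Gm20767 and AF067061 passed the filter in no tissue.

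**Figure D3:**
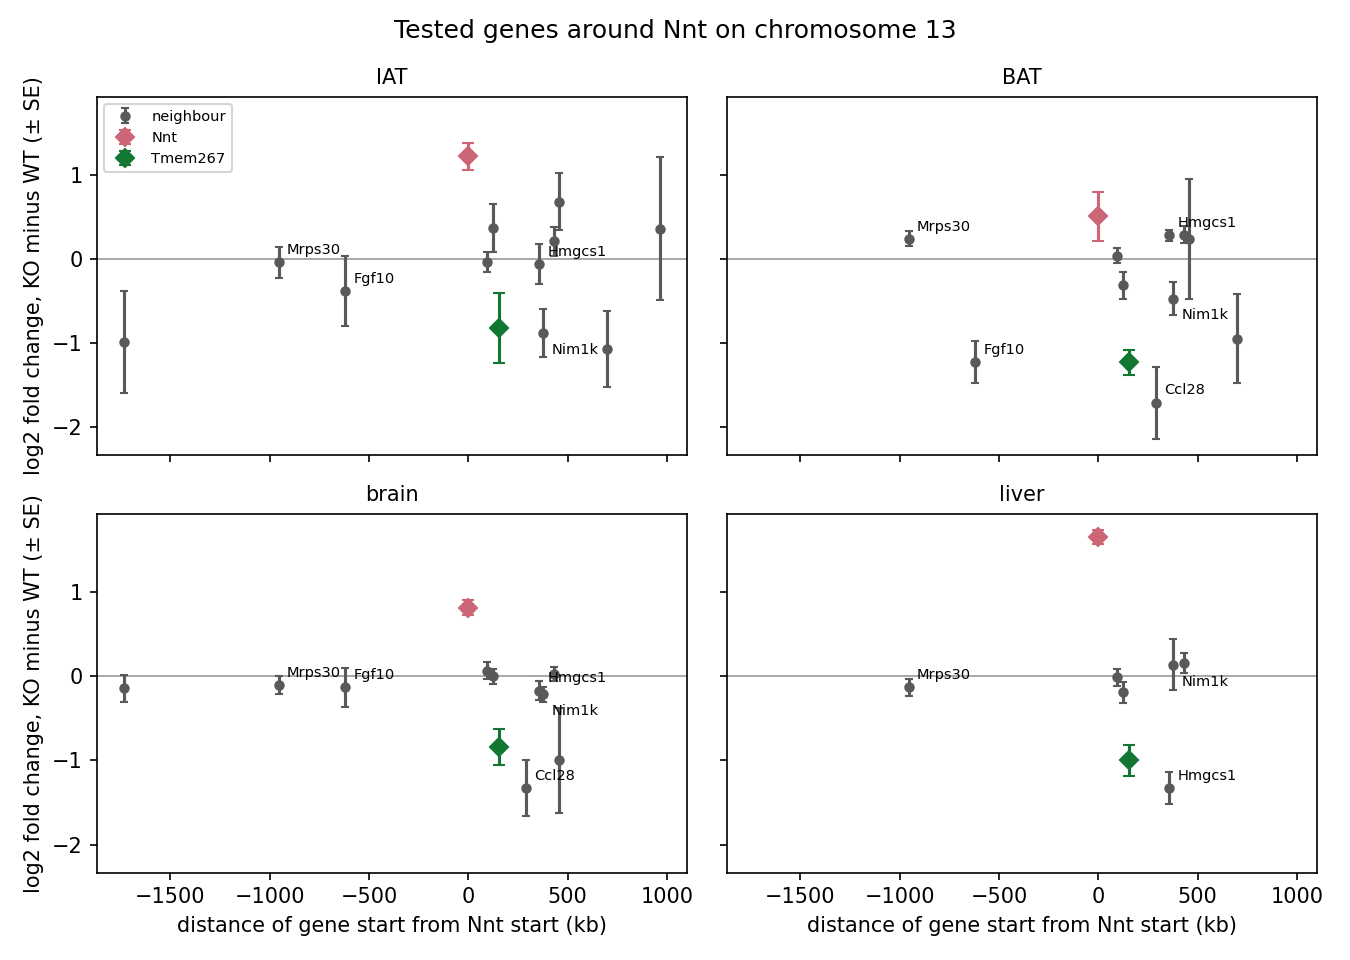
Log2 fold change, KO minus WT (points, ± SE), of each tested gene on chromosome 13 whose start lies within 2 Mb of the Nnt start, against its distance from that start in kb, by tissue; Nnt and Tmem267 are coloured diamonds and a few neighbours are named. Nnt stands above 0 and Tmem267 below it in each tissue, while Paip1 and 4833420G17Rik between them stay between -0.31 and 0.37.

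Genes other than Nnt that supply or use NADPH in mitochondria, or serve peroxide defence there, were tested as lists. Of 19 such genes, 19 were tested in IAT, BAT and brain and 17 in liver, and edgeR, DESeq2 and limma-voom called 0 in each tissue. EdgeR called no gene of any kind in IAT, so its 0 there carries little weight. At an unadjusted p under 0.05 there were 0, 1, 0 and 2 of the list in IAT, BAT, brain and liver. Over all genes tested these were 2226 of 14097, 2330 of 12588, 946 of 14385 and 1988 of 12331 in that order. The median log2 fold change was 0.05 in liver, -0.03 in brain, 0.00 in BAT and -0.22 in IAT, beside all-gene medians of 0.00, 0.00, -0.01 and 0.02. In IAT 15 of 19 estimates were below 0, in the tissue where KO libraries 1 and 3 were rich in lymphocyte transcripts.

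Among the 7 suppliers, Glud1, the glutamate dehydrogenase gene, had estimates of -0.07, 0.09, 0.04 and 0.02 in IAT, BAT, brain and liver. Idh2, the mitochondrial NADP-dependent isocitrate dehydrogenase, had -0.07, 0.07, 0.09 and -0.01, and Nadk2, the mitochondrial NAD kinase, had -0.02, -0.05, 0.09 and -0.08. The estimates of these 3 genes were within 0.1 of 0, with SEs of 0.09 to 0.25. Mthfd2, a mitochondrial enzyme of the folate pathway, varied most. In IAT it stood at 30.6, 7.32 and 17.7 CPM in KO against 5.83, 7.39 and 11.8 CPM in WT, so that the lymphocyte-rich libraries 1 and 3 held the high values. It passed once, without KO library 2 (log2 fold change 1.52, edgeR adjusted p = 0.0488, against 0.347 over all 6 libraries).

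The 12 genes of NADPH use and peroxide defence had estimates from -0.21 to 0.28 in liver, from -0.18 to 0.09 in brain, from -0.18 to 0.24 in BAT and from -0.44 to 0.31 in IAT. Gpx4, the glutathione peroxidase that reduces lipid peroxides, had estimates of 0.05, -0.03, 0.09 and -0.44 in the same order. Gpx1, the main glutathione peroxidase for hydrogen peroxide, had 0.28, -0.15, -0.05 and -0.25. None of these passed edgeR's test, and a miss does not show that the levels were alike.

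**Figure D4:**
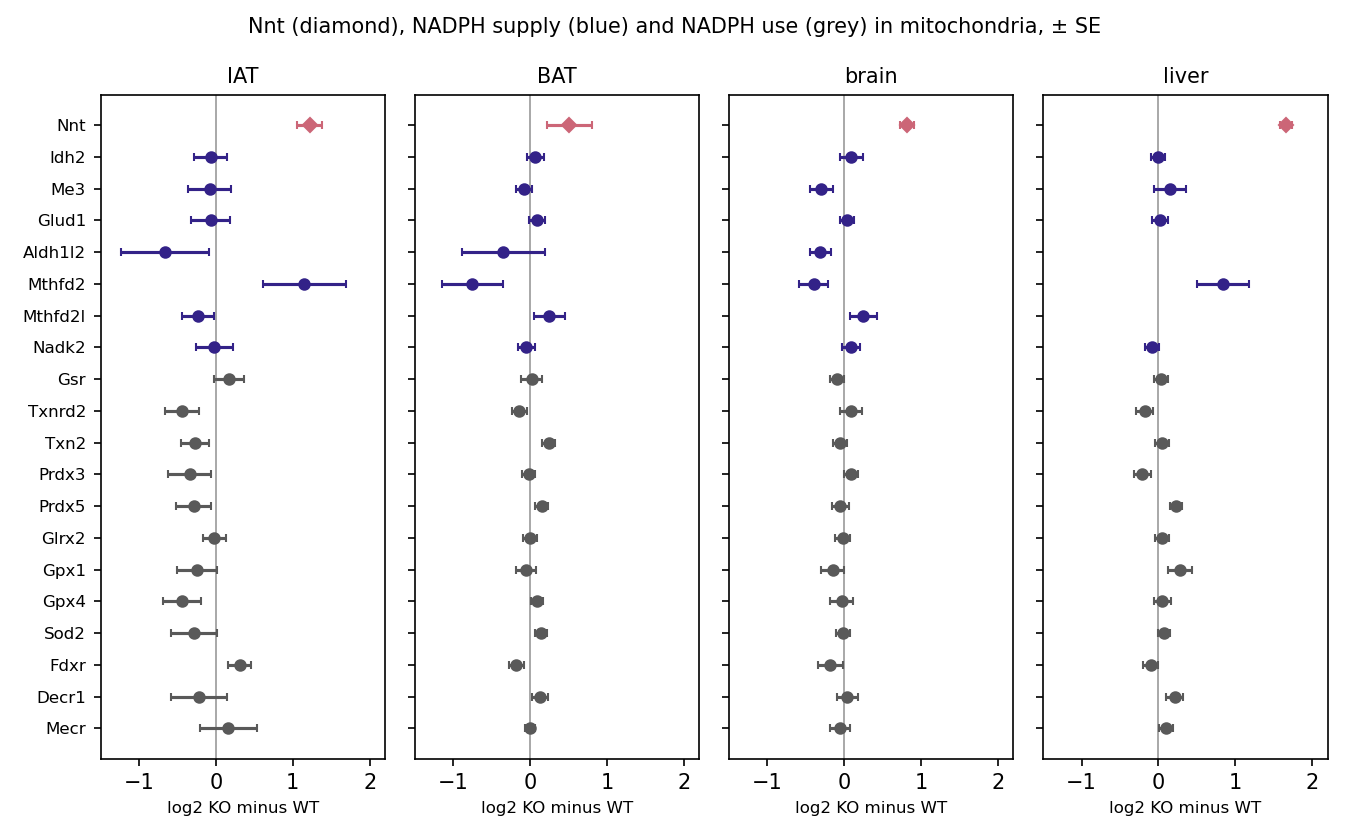
Log2 fold change, KO minus WT (points, ± SE), of Nnt (diamond), 7 mitochondrial NADPH suppliers (blue) and 12 genes of NADPH use and peroxide defence (grey) in each tissue, for the genes that passed the filter on low counts. Nnt lies to the right of the grey genes in each tissue, and the widest other values are those of Mthfd2 and Aldh1l2.

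Of the 7 genes that supply NADPH in the cytosol, edgeR called 0 in each tissue. At an unadjusted p under 0.05 there were 1, 2, 1 and 0 of the 7 in IAT, BAT, brain and liver. Over all genes tested these were 2226 of 14097, 2330 of 12588, 946 of 14385 and 1988 of 12331 in that order. Me1, the cytosolic malic enzyme, had the lowest estimates in liver, BAT and IAT. It stood at 9261, 2971 and 3777 CPM in IAT WT and 1784, 1202 and 1458 CPM in IAT KO, which do not overlap, at a log2 fold change of -1.85 ± 0.52 (SE, edgeR adjusted p = 0.237). In BAT it was -1.10 ± 0.30 (adjusted p = 0.144), also without overlap, while in liver it was -0.49 and in brain -0.01, with overlap in both. DESeq2 called Me1 in IAT, and neither DESeq2 nor limma-voom called another member in any tissue. Idh1, the cytosolic isocitrate dehydrogenase, had estimates of -0.07, -0.02, -0.17 and -0.07 in IAT, BAT, brain and liver. Aldh1l1 had -0.18, -0.02, 0.37 and -0.38, and was the member under an unadjusted p of 0.05 in brain (edgeR adjusted p = 0.679). Pgd, of the pentose phosphate pathway, had -0.60, 0.26, 0.11 and -0.21.

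The estimates of the oxidative phosphorylation subunits were mostly of 1 sign within a tissue and had small medians. In BAT 81 of 83 tested were above 0, with a median log2 fold change of 0.18 beside -0.01 over all genes, and in IAT 82 of 84 were below 0, with a median of -0.24 beside 0.02. In the lymphocyte-rich IAT KO libraries 1 and 3 the 86 subunit genes summed to 38927 and 48474 TPM. KO library 2 of IAT stood at 58792 TPM, with 50037 to 64647 in WT. The part of the mix of cells in the IAT estimates was not tested. The medians were -0.12 in brain and 0.13 in liver, both beside 0.00. In IAT 80 of 84 estimates were within 0.5 of 0, and the lowest, -3.76 ± 1.74 (SE), was that of Cox6a2, the cytochrome c oxidase subunit of heart and skeletal muscle. It stood at 5.77 and 20.1 CPM in WT libraries 1 and 2, those with muscle transcripts, and at 0.0598 CPM in WT library 3 and 0 to 1.59 CPM in KO. In the other tissues the estimates ran from -0.50 to 0.32 in liver, from -0.54 to 0.19 in brain and from -0.45 to 0.52 in BAT. EdgeR called 0 in each tissue. At an unadjusted p under 0.05 there were 1 of 84 in IAT, 24 of 83 in BAT, 4 of 81 in brain and 8 of 80 in liver. Over all genes tested these were 2226 of 14097, 2330 of 12588, 946 of 14385 and 1988 of 12331 in that order. Groups without overlap were seen for 1, 39, 14 and 9 of the tested subunits in that order. Over all genes KO lay above WT without overlap in 8.81%, 14.3%, 6.53% and 10.6%, and below it in 9.65%, 11.3%, 5.99% and 11.0%. DESeq2 called 2 in BAT, Cox8b and Ndufv3, where it called 467 of 12588 genes, and none elsewhere. Limma-voom called none of the subunits.

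A further list held 5 genes that are described as differing between C57BL/6 substrains, none of them on the chromosome of Nnt. Of the 3 members tested in each tissue, edgeR called 1 in BAT, brain and liver, Wdfy1 each time, where it called 0.540%, 0.0487% and 1.11% of all genes. The list was chosen with earlier results of these data known, so nothing is read from these shares. Wdfy1 encodes an endosomal adaptor protein, and it rose in these 3 tissues. Its BAT libraries held 19.2, 25.0 and 25.1 CPM in WT and 53.0, 55.8 and 53.9 CPM in KO. Its log2 fold change was 1.23 ± 0.12 in BAT, 1.17 ± 0.12 in brain and 0.65 ± 0.10 in liver (SE, edgeR adjusted p = 0.0105, 0.0314 and 0.0207). In IAT it was 0.81 ± 0.13 with an adjusted p of 0.172. The groups did not overlap in any tissue, with KO above WT in all, as for 27 of the 11027 genes tested in the 4 tissues (0.245%).

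The Wdfy1 calls changed with single libraries and with the tool, while the direction did not. In BAT the call was lost without WT library 2, WT library 3 or KO library 2, at adjusted p of up to 0.0629 in edgeR. In brain it was lost without any 1 library other than KO library 2 (0.0859 to 0.315), and in liver without any 1 library other than KO library 3 (0.0538 to 0.0706). In brain limma-voom also missed it (adjusted p = 0.0515), and on log2(TPM + 1) limma missed it in brain (0.0684) and liver (0.0706). In IAT it was called by DESeq2 (adjusted p = 0.000319), by edgeR in 1 fit of all 24 libraries (0.000563) and by edgeR without KO library 2 (0.0228). Over all alternatives the log2 fold change stayed between 0.94 and 1.29 in BAT, 0.97 and 1.27 in brain, and 0.45 and 0.72 in liver.

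Of the other 4 genes of that list, Cyfip2, a regulator of actin assembly, stood at 139 and 74.0 CPM in the lymphocyte-rich IAT KO libraries 1 and 3. It was at 2.21 CPM in KO library 2 and at 2.33 to 3.74 CPM in WT, and DESeq2 called it there (edgeR adjusted p = 0.238). In brain, where it was abundant, its means were 1066 ± 131 CPM in WT and 1252 ± 61.8 CPM in KO (SD, n = 3 each), with overlapping groups. Nlrp12 was tested in liver alone, at 13.6 and 18.6 CPM in WT and KO with overlap, and Crb1 passed the filter in no tissue. Entpd4 was listed at 0 in all 3 IAT KO libraries and at 3.17 to 6.12 CPM in WT, where DESeq2 and limma-voom called it and edgeR did not (adjusted p = 0.128). Reads can be split between it and a near-identical partner, Entpd4b, so the values of both are uncertain. Entpd4b, which is not on the list, was lower in KO, at log2 fold changes of -0.68 ± 0.09 in liver, -1.00 ± 0.10 in brain and -1.36 ± 0.20 in BAT (SE, edgeR adjusted p = 0.00783, 0.0340 and 0.0337). Of 15 alternatives in each of these tissues, the Entpd4b call was kept in 15 in liver and in 7 each in brain and BAT. Without KO library 3, edgeR's adjusted p for it was 0.315 in brain and 0.107 in BAT. In IAT Entpd4b was at -1.04 ± 0.13 and did not pass (adjusted p = 0.128). Whether the genotypes differ in substrain background was not tested.

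Genes whose values were most like those of Nnt were sought over the 24 libraries, by Pearson's r of log2 CPM after the tissue mean was taken out, among 10695 genes. The libraries share the genotype groups that chose the members, so these are descriptions. Pik3c3, a lipid kinase of autophagy, had r = 0.89 with Nnt, followed by Dynlt1b (0.88), Tsc22d3 (0.85), Arrdc2 (0.83) and Fam107a (0.83). Pik3c3 stood at 46.7, 43.6 and 45.0 CPM in BAT WT and 84.9, 88.0 and 76.5 CPM in BAT KO. Its KO libraries were above WT in CPM in all 4 tissues. The size of the BAT difference depended on the scale, since the TPM means were 15.2 ± 1.93 in WT and 17.9 ± 1.57 in KO (SD). Brain means were also close in TPM. The liver difference was large on both scales, with TPM means of 14.1 ± 3.23 in WT and 41.8 ± 4.67 in KO (SD). The IAT mean was also higher in KO in TPM. Why the scales differ was not tested. The lowest r was that of the targeted gene Prxl2a, at -0.91, followed by Srp54b (-0.81) and Nes (-0.80). Dynlt1b and Srp54b belong to families of near-identical copies, so their counts are uncertain.

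For Tmem267 the highest r was that of Prxl2a, at 0.87, followed by Fzd8 (0.86), Entpd4b (0.85) and Oxr1 (0.82). The lowest were Ankrd54 (-0.89), Gatad2a (-0.88) and Actl6a (-0.85). Nnt and Tmem267 themselves had r = -0.73 over the 24 libraries. Over the 12 WT libraries, where no genotype enters and tissue means were kept in, r between the members was 0.20.

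Across these 12 WT libraries the genes most like Nnt were Atp5g1, Iqgap2, Prkar2a, Nectin3 and Bace2, each with r = 0.98. For Tmem267 they were Kbtbd8 (0.92), Pcgf3 (0.91), Zfp791 (0.90), Rab5a (0.90) and Lmo7 (0.89). These 12 points fall into 4 tissues, so such values of r mostly compare tissue levels, and no p is given for them.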

How the data were processed

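RNA from 24 libraries was analysed in 8 groups of 3. The authors deposited 1 table with expected counts, TPM and FPKM per gene and library, per the file headers. Expected counts deposited by the authors are estimated reads, not normalised; TPM and FPKM were scaled by the authors per length and library. Per the submitters' processing notes, the build was GRCm38.p6 and the tools were RSEM 1.3.1, Bowtie2 2.3.4.3 and DESeq2 1.4.5; the annotation is not given in the sources used here. A further 24 per-sample columns were not used. RefSeq entries were found for 18958 genes and not for 57. Positions are from RefSeq, exons and sequences from GENCODE transcripts of the same build.

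Expected counts were rounded. Each tissue was fitted on its 6 libraries with edgeR 4.0.16 in R 4.3.3 (TMM, filterByExpr, quasi-likelihood F-test), adjusted by Benjamini-Hochberg over all genes tested and called under 0.05. Standard errors came from the F statistic. WT tissues were compared in 1 fit of 12 libraries, and differences between tissues in 1 fit of 24. The fit was tested on simulated data. No 2 libraries were identical.

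The members and gene lists were chosen with earlier results of these data known. Named genes were the members, table genes starting within 1 Mb of the Nnt start and called ones within 2 Mb, called list members or up to 3 abundant ones, and the 5 most and 3 least alike genes. The result of 1 gene under this rule is left out here. Gene names given beyond that (Pgd, Mthfd2, Aldh1l2, Cox8b, Ndufv3, Cox6a2, and the uncalled members of the substrain list) were chosen after their values were seen. Alternatives were RLE scaling, other filters, DESeq2 1.42.0, limma 3.58.1 (voom, and trend on log2(TPM + 1) or, as another pseudocount, log2(TPM + 0.1), keeping mean TPM of at least 1), a joint fit of the 24 libraries, a block for the replicate number, and leaving out each library. Chosen after seeing the data, 2 further settings left out the lymphocyte-rich pair or the muscle-rich pair of IAT libraries. Nothing says whether replicates beyond the stated 3 mice per group were independent, so p-values measure the spread between these libraries. Counting errors cover counting only, while the SDs and the SEs of the fits also take in the spread between libraries.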

Additional observations from a re-analysis of the deposited data

Results flagged for a closer look

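Hmgcs1 was the only one of the tested neighbours within 1 Mb of Nnt whose KO-minus-WT change differed between the 4 tissues by the interaction test (edgeR, adjusted p = 0.0357), with log2 fold changes of -1.33 in liver, -0.17 in brain, 0.28 in BAT and -0.06 in IAT. The liver value rests on 3 libraries per genotype, which did not overlap.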

How the results depend on the processing

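The direction of Nnt and Tmem267 between genotypes was the same under each alternative run in each tissue. Leaving out 1 library gave Nnt log2 fold changes of 1.60 to 1.69 in liver, 0.79 to 0.87 in brain, 1.11 to 1.33 in IAT and 0.31 to 0.88 in BAT, and Tmem267 values of -1.14 to -0.87, -1.13 to -0.66, -1.32 to -0.54 and -1.31 to -1.11 in that order. In liver Nnt was 1.52 on log2(TPM + 1) and 1.56 on log2(TPM + 0.1). Nnt in IAT was 0.97 without WT libraries 1 and 2, with only WT library 3 left in that group. Tmem267 in IAT was -0.14 without KO libraries 1 and 3, with only KO library 2 left in that group. The count of called genes over all genes was 137 for liver, 7 for brain, 68 for BAT and 0 for IAT, where DESeq2 called 402, 56, 467 and 987. Limma-voom called 7 in IAT and 2 in brain, and 1 fit of all 24 libraries called 2573 in IAT and 173 in BAT. The TPM scales called 29 and 28 in BAT (pseudocounts of 1 and 0.1), and the unfiltered liver table gave 218. Leaving out 1 library gave 58 to 103 calls for liver, 1 to 9 for brain, 2 to 94 for BAT and 0 to 1760 for IAT. Neighbours called were 1 in IAT with all 24 libraries in 1 fit (Nim1k), 1 in BAT with DESeq2 (Fgf10), and 0 to 1 in liver when 1 library was left out. Mitochondrial NADPH genes called in IAT were 0 to 1 when 1 library was left out. Across WT tissues, Tmem267 had an adjusted p of 0.0568 and 1 called pair with all 24 libraries in 1 fit, and 1 to 4 called pairs when 1 library was left out. On log2(TPM + 1) and log2(TPM + 0.1) the sign of Tmem267 turned for IAT minus BAT (0.02 on both), IAT minus liver (0.45 and 0.49) and BAT minus liver (0.43 and 0.47). Nnt in IAT minus brain, near 0, ran from -0.13 to 0.06 when 1 library was left out, and was -0.71 and -0.77 on the TPM scales in that order, where it passed the test. The cause of these changes was not tested. Counts limit Nnt in BAT most, at 47 to 103 per library.

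With the replicate number as a block, 1 gene was called in BAT, 4 for brain and 228 for liver, and Wdfy1 was not called in BAT (adjusted p = 0.0664) or brain (0.110, edgeR). With 3 libraries per group, correlations cannot settle whether the numbers pair the libraries. WT and KO libraries of the same number and tissue had correlations of deviations from -0.24 to 0.39, of which 2 of 12 exceeded 0.1. Between tissues, libraries of the same number had -0.18 to 0.24 in WT and -0.08 to 0.14 in KO. In all, 7 of 24 libraries correlated best with their own number, 0 of 6 each in IAT and BAT, 4 of 6 in brain and 3 of 6 in liver. Nnt and Tmem267 kept their direction under the block, at 1.66 and -1.00 in liver. Across WT tissues the block ended the Tmem267 call of BAT minus brain (-0.49).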
